A study of Mus musculus with 126 samples.

Results

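The transcription factor genes examined here carry the time of the circadian clock to other genes: Dbp, Tef and Hlf of the PAR bZIP family, and Bhlhe40 and Bhlhe41, which encode DEC1 and DEC2. They were taken by symbol as 5 of the 24883 rows of the mouse colon expression tables. No measured value entered the rule, but the choice was made with earlier results of these data known. Poly(A) RNA of the colon was sequenced in 7 conditions of 18 libraries, with 3 libraries every 4 h starting at ZT0 and ending at ZT20 (ZT, zeitgeber time, hours after lights on). The genotype groups were gut-specific Bmal1 knock out mice, gut-specific MR knock out mice (MR, the mineralocorticoid receptor) and wild type mice, all on normal chow ad libitum. The knock outs were 8 to 12 weeks old, while the labels give no age for the wild type and the sources used here do not give the Cre line behind "gut-specific". The feeding groups were male C57BL/6 mice, 8 weeks old, in 12 h of light and 12 h of darkness. They had high salt food by day (high salt day fed) or by night (high salt night fed), or low salt food by day (low salt day fed) or by night (low salt night fed). The labels do not state that each library came from its own mouse, so the p-values measure the spread between these samples.

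DBP, TEF and HLF are activators that bind D-box elements, and the repressor NFIL3 (E4BP4) competes with them for these sites. DEC1 and DEC2 are basic helix-loop-helix repressors that bind E-box elements and so oppose CLOCK and BMAL1, the activators of Dbp, Per and Rev-erb genes. In liver and kidney the PAR bZIP factors are known to drive daily rhythms of detoxification and drug metabolism genes, and DEC1 and DEC2 also respond to low oxygen, growth signals and feeding.

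Levels are given as FPKM (fragments per kilobase of transcript and per library size) after rescaling each library by its median ratio to all libraries, with 0.5 added before any log2. The 24 h cosine in log2 gives an amplitude (mean to peak) and a peak time, and limma tests both the rhythm and the differences, with p-values adjusted by Benjamini-Hochberg over the 11377 rows with a mean of at least 1 FPKM in some condition. Each condition has its own table and whether the tables were normalized together is not given, so level comparisons cross tables. The ± after an amplitude, peak time or log2 difference is the standard error.

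Epithelial markers dominated every library. The 7 epithelial markers summed to between 4808 and 15913 FPKM, while 6 smooth muscle markers stayed at or below 4.69 FPKM. Scale factors lay under 0.6 in 14 libraries: in Bmal1 knock out 1 at ZT0, 3 at ZT12, 3 at ZT16 and 2 at ZT20, and in high salt night fed 3 at ZT8 and 2 at ZT12. The FPKM tables give no read counts, so counting intervals cannot be given, and the relative depth read from the FPKM steps of single reads lay between 0.614 and 1.37 times the median library. The targeted genes averaged lower in their knock outs. Arntl, which encodes BMAL1, averaged 4.41 FPKM in Bmal1 knock out and 9.32 FPKM in wild type. Its log2 mean was lower in that knock out at 3 times and higher at 3. Nr3c2, which encodes MR, averaged 3.05 FPKM in MR knock out and 15.1 FPKM in wild type, and was lower at 6 of 6 times. Each also averaged lower in the other knock out: Nr3c2 had 6.36 FPKM in Bmal1 knock out and Arntl 7.35 FPKM in MR knock out.

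The high salt day fed libraries stood apart in their time course. There Dbp was high at ZT4, ZT12 and ZT20, with 4.05 to 34.8 FPKM in 9 libraries (median 12.9), and low at ZT0, ZT8 and ZT16, with 0.572 to 2.75 FPKM in 9 libraries (median 0.851). Those ranges did not overlap. A 24 h cosine took 13.7% of the variance between the 6 time means for Dbp and 35.0% for Tef, and both departed from the cosine (limma F test, adjusted p = 1.04e-14 and 7.07e-11). In that condition 2.19% of all rows departed from a cosine, and 10 of 13 clock genes did. The order of times in this table could not be checked against a second label. Its peak times are therefore printed only as fitted. Its values at single times and its rhythm comparisons with other conditions also depend on that order. A level averaged over the 6 times does not. In high salt night fed Dbp, Tef and Bhlhe40 also departed from the cosine (adjusted p = 0.00758, 0.00634 and 0.00805), beside 6.36% of all rows. It took 92.2% of the variance there for Dbp, 93.8% for Tef and 26.7% for Bhlhe40.

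The bases just upstream of the start sites are shown because CLOCK and BMAL1 bind the E-box CACGTG. The windows come from RefSeq (GRCm38.p6, the same assembly as mm10), which held 4 of the 5 genes, and cover 250 bases before a start. Only the bases ahead of the first annotated exon base in a window are printed. Capitals mark CACGTG.
Dbp, chr7:45704997-45705087, plus strand: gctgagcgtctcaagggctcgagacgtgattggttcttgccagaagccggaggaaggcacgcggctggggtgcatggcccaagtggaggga
Tef, second start, chr15:81811164-81811413, plus strand: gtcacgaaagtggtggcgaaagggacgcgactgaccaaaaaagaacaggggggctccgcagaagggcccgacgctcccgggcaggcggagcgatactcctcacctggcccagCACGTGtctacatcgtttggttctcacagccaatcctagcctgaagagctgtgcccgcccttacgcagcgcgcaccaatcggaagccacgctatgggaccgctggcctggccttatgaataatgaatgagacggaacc
Hlf, chr11:90390918-90391167, minus strand: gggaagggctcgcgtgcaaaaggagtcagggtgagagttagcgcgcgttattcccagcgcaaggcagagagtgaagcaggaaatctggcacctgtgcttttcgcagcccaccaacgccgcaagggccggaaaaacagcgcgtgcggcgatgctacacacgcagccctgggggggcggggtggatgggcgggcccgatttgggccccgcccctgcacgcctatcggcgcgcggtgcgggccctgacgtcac
Bhlhe41, chr6:145865559-145865670, minus strand: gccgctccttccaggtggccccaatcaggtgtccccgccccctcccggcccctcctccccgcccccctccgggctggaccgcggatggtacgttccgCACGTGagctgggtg

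CACGTG began at position -138 from the second start of Tef and at -153 from that of Bhlhe41. A further copy lay at -127 from the first start of Tef, past the first annotated exon base of a window that is not printed. It was present in 6.02% of all 32851 windows of this length. The windows of Dbp and Hlf held no CACGTG, and the related CACGTT (3.85% of all windows) and the D-box forms TTATGTAA (0.819%), TTACGTAA (0.113%) and TTATGCAA (0.694%), read on both strands, were in none of the members' windows. A match or its absence in so short a window is a description of its letters only.

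Of the 5 genes, 3 passed the filter on low values. Bhlhe40 (chromosome 6, 108660629 to 108666925, plus strand, mm10) ran from 12.6 to 55.5 FPKM over all libraries with a median of 29.2. Tef (chromosome 15, 81802421 to 81826863, plus strand) ran from 0.718 to 37.3 FPKM with a median of 7.34, and Dbp (chromosome 7, 45705088 to 45710203, plus strand) from 0.270 to 49.3 FPKM with a median of 2.17. Bhlhe40 was therefore the most abundant per length at the median, while Dbp spanned the widest range. Hlf (chromosome 11, 90336536 to 90390895, minus strand) reached at most 0.0455 FPKM and was listed at 0 in 36 libraries. Bhlhe41 (chromosome 6, 145858243 to 145865558, minus strand) reached at most 0.0413 FPKM and was listed at 0 in 64. No condition mean of Hlf exceeded 0.0119 FPKM, nor any of Bhlhe41 0.00800 FPKM. Both failed the filter in every condition and were not tested, so the tests below cover 3 of the 5 genes.

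In Bmal1 knock out colon the daily rise of Dbp and Tef was missing and all 3 tested genes were lower. Dbp lay between 0.521 and 2.24 FPKM in the 18 Bmal1 knock out libraries (median 1.16), against 0.553 to 45.7 FPKM in the 18 wild type libraries (median 5.21). At ZT12 it had 1.31, 2.24 and 1.0 FPKM in Bmal1 knock out, against 45.7, 38.1 and 39.8 FPKM in wild type. The knock out libraries were below all wild type libraries at ZT8, ZT12 and ZT16, and the groups overlapped at ZT0, ZT4 and ZT20, the times of the wild type trough. Averaged over the day Dbp fell by 1.69 ± 0.14 on the log2 scale (limma, adjusted p = 3.57e-13), and its mean was lower at 4 of 6 times.

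Tef had 5.59, 5.82 and 4.11 FPKM at ZT12 in Bmal1 knock out, against 33.4, 33.2 and 32.2 FPKM in wild type. At ZT0 it had 3.97, 4.05 and 4.34 FPKM in Bmal1 knock out, against 4.08, 2.56 and 3.08 FPKM in wild type, so the groups overlapped there and at ZT4 and were apart at the other 4 times. Its level fell by 1.15 ± 0.09 (adjusted p = 5.55e-14), with a lower mean at 4 of 6 times. Over all 18 libraries Tef spanned only 3.36 to 5.82 FPKM in the knock out, a narrow band inside the wild type range of 2.56 to 33.4 FPKM.

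Bhlhe40 was lower throughout the day. It averaged 20.4 ± 5.32 FPKM in Bmal1 knock out and 35.3 ± 8.52 FPKM in wild type (SD, n = 18 each), was lower at 6 of 6 times and fell by 0.79 ± 0.10 (adjusted p = 3.86e-09). The groups did not overlap at ZT0, ZT12, ZT16 and ZT20. All 3 tested genes were thus lower, in a comparison where 49.2% of all rows were lower and 31.1% higher and the median row stood at -0.13.

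The rhythm test passed for 0 of the 3 genes in Bmal1 knock out by limma, beside 56.7% of all rows. At an unadjusted p under 0.05 it also passed for 0. Without the libraries of low scale factor, with cosine and sine terms, 754 rows passed there, against 6450 in the main fit. The fit giving 754 rows holds no Bmal1 knock out library at ZT12 or ZT16. Dbp had an amplitude of 0.22 ± 0.14 in Bmal1 knock out (adjusted p = 0.331) and 2.78 ± 0.14 in wild type, with the wild type peak at ZT11.8 (± 0.19 h). Tef had 0.13 ± 0.09 in Bmal1 knock out (adjusted p = 0.380) and 1.75 ± 0.09 in wild type, with the wild type peak at ZT12.9 (± 0.19 h). In wild type Dbp had the largest amplitude of all 11377 rows and Tef ranked 8, in a condition where 17.7% of rows were rhythmic with a median amplitude of 0.14. The rhythm difference between Bmal1 knock out and wild type passed for 3 of 3 genes, beside 31.2% of all rows (Dbp adjusted p = 3.65e-12, Tef 4.85e-12, Bhlhe40 0.0397).

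The call for Bhlhe40 was marginal and held in only 20 of 39 fits with a replicate number or library left out. Its amplitude was 0.23 ± 0.10 in Bmal1 knock out (adjusted p = 0.109) and 0.30 ± 0.10 in wild type (adjusted p = 0.0704), neither past the threshold, and the difference had an adjusted p of 0.234 without the 14 libraries of low scale factor. Without those libraries, with cosine and sine terms, the level differences were -1.51, -1.09 and -0.84 for Dbp, Tef and Bhlhe40. That fit holds no Bmal1 knock out library at ZT12 or ZT16, so the knock out level at those times is extrapolated by the cosine and the fit is no check of the difference at the wild type peak. With FPKM as deposited, all 3 genes passed the rhythm test in Bmal1 knock out, at amplitudes of 0.63, 0.74 and 1.0, and with a length score of each library as a covariate the fall of Bhlhe40 was 0.26. The summed epithelial markers overlapped, with 5611 to 11485 FPKM in Bmal1 knock out and 6046 to 10571 FPKM in wild type, but single markers differed in their medians. Epcam had 324 FPKM in Bmal1 knock out and 501 FPKM in wild type, Cdh1 had 107 FPKM in Bmal1 knock out and 194 FPKM in wild type, and Slc26a3 had 43.8 FPKM in Bmal1 knock out and 202 FPKM in wild type. Krt8 was the other way round, with 2838 FPKM in Bmal1 knock out and 2293 FPKM in wild type, as was Krt20, with 386 FPKM in Bmal1 knock out and 297 FPKM in wild type. The part of these markers in the members' differences was not tested. In bulk RNA fewer cells of a type and less RNA per cell cannot be told apart.

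**Figure D1:**
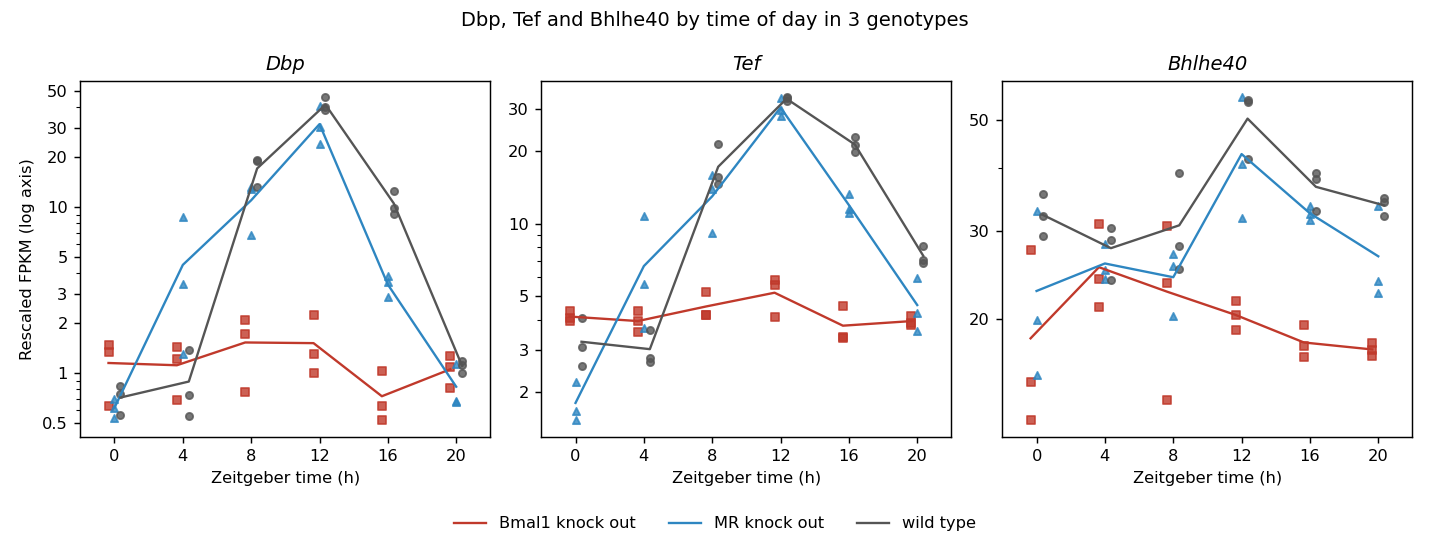
Rescaled FPKM (log axis) of Dbp, Tef and Bhlhe40 against zeitgeber time in Bmal1 knock out (squares), MR knock out (triangles) and wild type (circles); each point is a library and lines join the means of 3. Dbp and Tef stay low and flat in Bmal1 knock out, while MR knock out and wild type both have their highest mean at ZT12.

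Lists of related genes were followed alongside, and whether these factors act on them in this colon was not tested. Of 7 clock genes with known D-boxes 5 were tested, and 5 were lower in Bmal1 knock out than in wild type with a median of -2.03, among them Nr1d1 (-3.12), Nr1d2 (-2.79), which encode the REV-ERB repressors, and Per3 (-2.03). Of 6 genes reported as PAR bZIP targets in mouse liver or brain 4 were tested and 4 were lower, with a median of -0.85: Por (-1.13), the electron donor of cytochrome P450 enzymes, Pdxk (-0.88), which makes the active form of vitamin B6, Nr1i3 (-0.83), the xenobiotic receptor CAR, and Alas1 (-0.33), the first enzyme of heme synthesis. Of 6 E-box clock genes 4 were lower and 2 were higher, among them Cry1 (1.19). Of 6 clock genes with ROR elements 4 were higher and 2 lower, and Nfil3, the repressor that shares D-boxes with the PAR bZIP factors, rose by 1.06 (adjusted p = 5.85e-11). With FPKM as deposited, where the median row of this comparison stood at -0.89, Nfil3 stood at 0.27 without passing and only Cry1 of the ROR element genes was higher, whereas all tested D-box clock genes and PAR bZIP targets were lower there and after quantile normalization. Among the other clock repressors Ciart was lower (-1.31) and Cry2 did not pass. The HIF1 targets, which share the low oxygen response of Bhlhe40, gave 2 higher and 8 lower of 12, with a median of -0.30 (Bnip3 -1.04, Vegfa -0.85, Pdk1 -0.74), and 0 higher and 11 lower with FPKM as deposited.

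In MR knock out colon Tef and Bhlhe40 were slightly lower, and Dbp and Tef peaked earlier. Dbp at ZT16 had 3.86, 3.52 and 2.86 FPKM in MR knock out, against 9.92, 12.5 and 9.04 FPKM in wild type, with no overlap. At ZT4 it had 1.3, 3.45 and 8.69 FPKM in MR knock out, against 0.741, 0.553 and 1.38 FPKM in wild type, where the groups overlapped and the knock out libraries had the widest replicate spread of any Dbp group. Tef repeated this pattern without overlap. It had 3.68, 5.60 and 10.7 FPKM at ZT4 in MR knock out, against 2.77, 2.67 and 3.62 FPKM in wild type. At ZT16 it had 13.3, 11.5 and 11.1 FPKM in MR knock out, against 19.8, 22.9 and 21.2 FPKM in wild type.

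Dbp peaked at ZT10.5 in MR knock out and ZT11.8 in wild type, a shift of -1.38 ± 0.30 h (rhythm difference, adjusted p = 0.0068), with amplitudes of 2.29 ± 0.14 in MR knock out and 2.78 ± 0.14 in wild type. Tef peaked at ZT11.7 in MR knock out and ZT12.9 in wild type, a shift of -1.27 ± 0.28 h (adjusted p = 0.0282), with amplitudes of 1.64 ± 0.09 in MR knock out and 1.75 ± 0.09 in wild type. Of the 3 genes 2 differed in rhythm, where 0.835% of all rows did. Bhlhe40 did not (adjusted p = 0.920), and was rhythmic in MR knock out with an amplitude of 0.37 ± 0.10 (adjusted p = 0.0174). Replicate numbers 1, 2 and 3 gave that gene amplitudes of 0.23, 0.70 and 0.24, and without replicate 2 it was 0.23 (adjusted p = 0.309). All 3 genes were rhythmic in MR knock out, beside 21.7% of all rows, and 2 of 3 in wild type. Both calls of a rhythm difference were lost without replicate 2 or replicate 3, with a fit of cosine and sine terms alone, and with FPKM as deposited. The Tef call was also lost with the compared conditions alone (adjusted p = 0.0938) and held in only 24 of 39 fits with a replicate number or library left out, so single libraries end it, while the Dbp call held in 37 of 39.

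In level Tef fell by 0.29 ± 0.09 (adjusted p = 0.00361) and Bhlhe40 by 0.29 ± 0.10 (adjusted p = 0.00818) in MR knock out relative to wild type, while Dbp stood at -0.23 ± 0.14 (adjusted p = 0.139). This made 2 of 3 lower, beside 41.3% of all rows lower and 24.7% higher. Bhlhe40 averaged 29.1 ± 9.04 FPKM in MR knock out and 35.3 ± 8.52 FPKM in wild type (SD, n = 18 each), was lower at 6 of 6 times, and overlapped at every time. With the length score as a covariate neither fall passed, Bhlhe40 turned to 0.02 and Tef stood at -0.22. Both calls were also lost without replicate 1 (adjusted p = 0.185 for Tef and 0.195 for Bhlhe40), while without replicate 3 at ZT4 of MR knock out Dbp reached -0.33 (adjusted p = 0.0156). The summed T cell markers had a median of 8.27 FPKM in MR knock out and 3.57 FPKM in wild type, and their part in these differences was not tested. Of the tested D-box clock genes 5 of 5 were lower in MR knock out (Per1 -1.22, Per2 -0.79, Per3 -0.63), and of the tested PAR bZIP targets 1 of 4 was (Pdxk -0.80). HIF1 targets gave 7 higher and 4 lower of 12 (Ldha 0.53, Egln3 0.96, Ddit4 -1.08), but 2 higher and 3 lower with FPKM as deposited.

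Under low salt, feeding by day turned the Dbp and Tef rhythms to the opposite part of the day and flattened them. Dbp at ZT4 had 17.4, 16.9 and 11.1 FPKM in low salt day fed, against 0.502, 0.431 and 0.270 FPKM in low salt night fed. At ZT12 it had 0.946, 1.64 and 2.09 FPKM in low salt day fed, against 49.3, 47.6 and 30.2 FPKM in low salt night fed. The groups overlapped at ZT20 only, with day fed libraries higher at ZT0 and ZT4 and lower at ZT8, ZT12 and ZT16. Tef followed the same times, with no overlap at ZT0, ZT4, ZT12 and ZT16. At ZT12 it had 4.56, 6.41 and 7.59 FPKM in low salt day fed, against 28.2, 26.9 and 25.7 FPKM in low salt night fed.

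The peak of Dbp was at ZT2.7 in low salt day fed and ZT12.3 in low salt night fed, a shift of -9.58 ± 0.40 h (adjusted p = 2.3e-21), and its amplitude was 1.72 ± 0.15 in low salt day fed and 2.82 ± 0.15 in low salt night fed. Tef peaked at ZT3.7 in low salt day fed and ZT13.7 in low salt night fed, a shift of -9.98 ± 0.47 h (adjusted p = 4.01e-21), with amplitudes of 0.88 ± 0.10 in low salt day fed and 1.96 ± 0.10 in low salt night fed. The highest time mean of Dbp was 11.2 times its lowest in low salt day fed and 105.5 times in low salt night fed. For Tef these ratios were 3.55 in low salt day fed and 19.4 in low salt night fed.

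Bhlhe40 moved with them at a smaller scale. At ZT4 it had 40.6, 33.3 and 36.4 FPKM in low salt day fed, against 20.9, 20.5 and 16.1 FPKM in low salt night fed, with no overlap. Its rhythm differed (adjusted p = 3.77e-04), passing in low salt night fed at ZT14.5 with an amplitude of 0.43 ± 0.08 and not in low salt day fed (0.19 ± 0.08, adjusted p = 0.108). So 3 of 3 genes differed in rhythm with feeding time, beside 38.6% of all rows, and so did 4 of the 4 tested PAR bZIP targets. Rhythms passed for 2 of 3 genes in low salt day fed, beside 42.2% of all rows, and for 3 of 3 in low salt night fed, beside 22.6%. Without replicate 1 Bhlhe40 lost both its rhythm in low salt night fed (adjusted p = 0.0720) and the rhythm difference (0.0736).

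The level averaged over the day did not pass for any of the 3 genes by limma, with 1 at an unadjusted p under 0.05 (Tef, 0.21 ± 0.10, adjusted p = 0.261). Of all rows 1.04% were higher and 2.29% lower in low salt day fed. For Dbp the log2 difference was -0.01 ± 0.15, although its arithmetic mean was 6.81 FPKM in low salt day fed and 12.4 FPKM in low salt night fed.

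**Figure D2:**
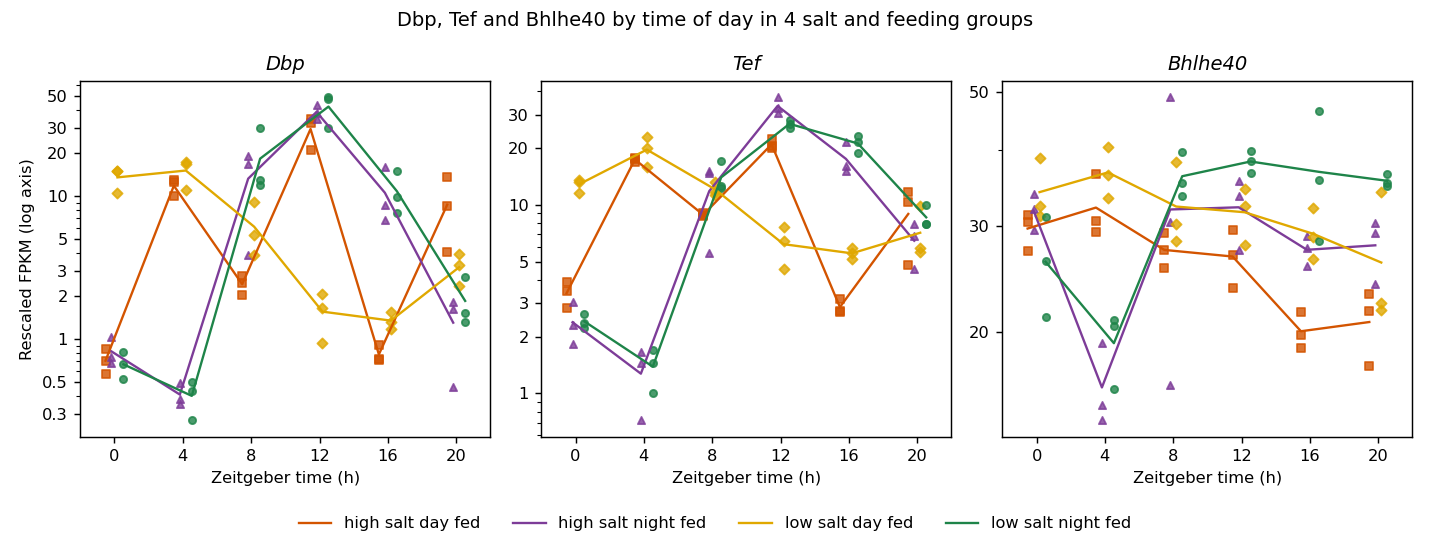
Rescaled FPKM (log axis) of Dbp, Tef and Bhlhe40 against zeitgeber time in high salt day fed (squares), high salt night fed (triangles), low salt day fed (diamonds) and low salt night fed (circles); each point is a library and lines join the means of 3. Both night fed groups peak at ZT12 for Dbp and Tef, low salt day fed is highest at ZT4, and high salt day fed goes up and down between neighbouring times.

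Under high salt, day and night feeding differed in rhythm for 3 of 3 genes, beside 32.5% of all rows, but the day fed time course of Dbp and Tef was not a 24 h curve. This comparison and the values at single times rest on the unchecked order of times in high salt day fed. Dbp at ZT4 had 10.02, 12.9 and 12.6 FPKM in high salt day fed, against 0.496, 0.351 and 0.383 FPKM in high salt night fed. At ZT12 it had 34.8, 32.7 and 21.0 FPKM in high salt day fed, against 43.8, 34.5 and 38.3 FPKM in high salt night fed. At ZT16 it had 0.904, 0.729 and 0.713 FPKM in high salt day fed, against 8.73, 16.1 and 6.87 FPKM in high salt night fed. The day fed libraries were thus all higher at ZT4 and ZT20, all lower at ZT8 and ZT16, and overlapped the night fed ones at ZT0 and ZT12.

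Tef went the same way, with 17.6, 16.8 and 17.8 FPKM at ZT4 in high salt day fed, against 1.65, 1.44 and 0.718 FPKM in high salt night fed. At ZT16 it had 3.18, 2.73 and 2.69 FPKM in high salt day fed, against 16.0, 21.4 and 15.2 FPKM in high salt night fed. Nfil3 took the opposite course: it had 1.70 to 5.03 FPKM at ZT4, ZT12 and ZT20 of high salt day fed and 6.58 to 8.79 FPKM at ZT0, ZT8 and ZT16, without overlap.

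**Figure D3:**
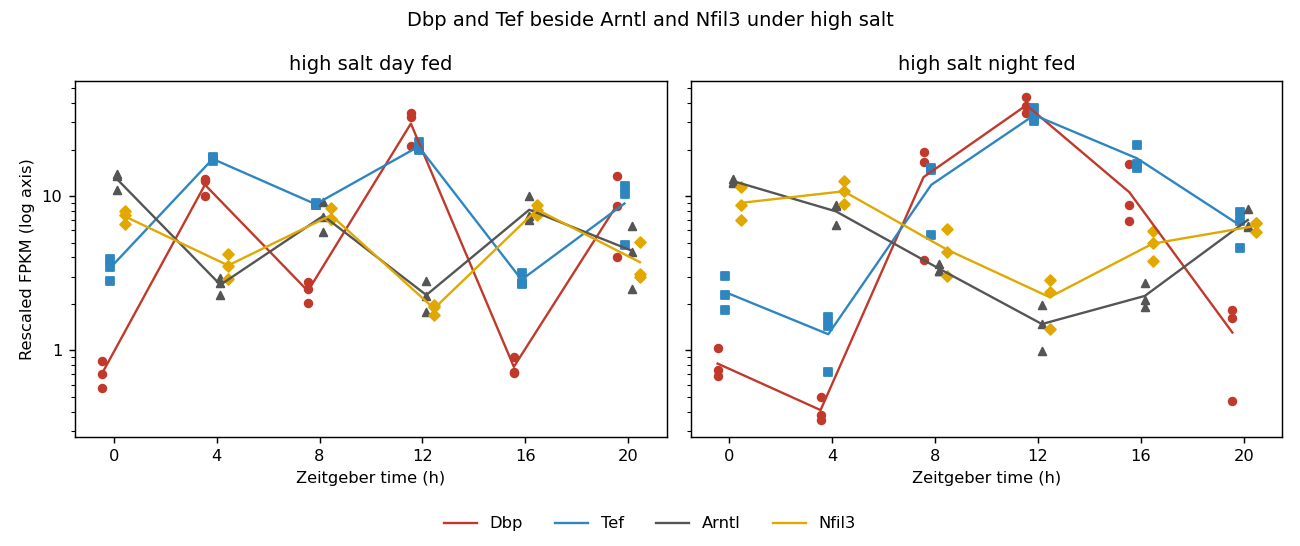
Rescaled FPKM (log axis) of Dbp, Tef, Arntl and Nfil3 against zeitgeber time in high salt day fed (left) and high salt night fed (right); each point is a library and lines join the means of 3. In high salt day fed Dbp is high and Nfil3 low at ZT4, ZT12 and ZT20 without overlap with the other times, while the ranges of Tef (4.79 to 22.3 against 2.69 to 9.07 FPKM) and Arntl (1.78 to 6.39 against 5.84 to 13.8 FPKM) overlap.

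The fitted amplitude of Dbp was 0.89 ± 0.15 in high salt day fed and 2.69 ± 0.15 in high salt night fed, and that of Tef 0.84 ± 0.10 in high salt day fed and 2.03 ± 0.10 in high salt night fed. Fitted peaks were ZT9.7 for Dbp and ZT8.1 for Tef in high salt day fed, against ZT12.3 and ZT13.5 in high salt night fed. The rhythm difference passed for Dbp (adjusted p = 1.02e-09), Tef (8.53e-16) and Bhlhe40 (5.76e-04), and with time as a factor in place of a cosine, a test chosen after seeing the data, for the same 3 (1.15e-14, 5.24e-17 and 5.84e-04). Bhlhe40 did not alternate: the cosine took 84.0% of its variance in high salt day fed, with a fitted peak at ZT4.8 (± 0.94 h). In high salt night fed it took only 26.7%, so the fitted peak at ZT15.6 (± 1.25 h) describes that course poorly. Bhlhe40 had 15.2, 19.2 and 14.3 FPKM at ZT4 of high salt night fed, its lowest time mean there. Rhythms passed for 3 of 3 genes in high salt day fed, beside 31.6% of all rows, and for 3 of 3 in high salt night fed, beside 57%. Without the libraries of low scale factor, with cosine and sine terms, 866 rows passed in high salt night fed, against 6490 in the main fit. The fit giving 866 rows lacks all 3 high salt night fed libraries at ZT8 and 2 at ZT12, so it is a weak check at those times. With cosine and sine terms the calls of Dbp in high salt day fed (adjusted p = 0.106) and of Bhlhe40 in high salt night fed (0.0837) were lost, and without replicate 1 those of Bhlhe40 in both (0.297 in high salt day fed and 0.144 in high salt night fed).

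The level did not pass for any of the 3 genes between high salt day fed and high salt night fed by limma, with 0 at an unadjusted p under 0.05 (Dbp 0.09 ± 0.15, Tef 0.14 ± 0.10, Bhlhe40 -0.06 ± 0.08), beside 14.7% of all rows higher and 12.9% lower. With FPKM as deposited all 3 were higher in high salt day fed, by 0.51, 0.58 and 0.39. In high salt night fed at ZT8, where all 3 libraries had a low scale factor, replicate 3 was low for all of them: Dbp had 19.2, 16.7 and 3.86 FPKM, and Bhlhe40 30.4, 49.0 and 16.4 FPKM.

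With feeding at night, no rhythm difference of Dbp or Tef between high and low salt passed. At ZT12 Dbp had 43.8, 34.5 and 38.3 FPKM in high salt night fed, against 49.3, 47.6 and 30.2 FPKM in low salt night fed, and the groups overlapped at 6 of 6 times. Its amplitude differed by -0.13 ± 0.22 and its peak by 0.04 ± 0.30 h (adjusted p = 0.909). Tef differed in amplitude by 0.06 ± 0.14 and in peak by -0.19 ± 0.27 h (adjusted p = 0.843). The rhythm difference passed for 0 of 3 genes by limma and for 0 at an unadjusted p under 0.05, beside 12.3% of all rows, while with FPKM as deposited it passed for 3.

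In level Bhlhe40 was lower under high salt at both feeding times, with calls that depended on the fit. It averaged 27.9 ± 8.34 FPKM in high salt night fed and 32.1 ± 8.18 FPKM in low salt night fed (SD, n = 18 each), a log2 difference of -0.21 ± 0.08 (adjusted p = 0.0324), lower at 5 of 6 times. By day it averaged 26.1 ± 5.04 FPKM in high salt day fed and 31.7 ± 5.22 FPKM in low salt day fed (SD, n = 18 each), a difference of -0.28 ± 0.08 (adjusted p = 0.0108), lower at 6 of 6 times. That made 1 of 3 genes lower at night, beside 19.6% of all rows lower and 15.4% higher, and 1 of 3 by day, beside 7.05% lower and 7.79% higher. The night call was lost in a fit of those groups alone (adjusted p = 0.0810), with cosine and sine terms (0.0853), with the length score (0.163) and with no filter on low values (0.0501), and held in 29 of 39 fits with a replicate number or library left out (0.394 without replicate 1). The day call was lost without any 1 of the 3 replicate numbers (0.0508 to 0.0811). The summed T cell markers had a median of 4.03 FPKM in high salt night fed and 12.1 FPKM in low salt night fed, and of 8.79 FPKM in high salt day fed and 6.49 FPKM in low salt day fed, and their part in these differences was not tested. Among the tested PAR bZIP targets, 3 of 4 were lower in high salt night fed than in low salt night fed (Pdxk -0.25, Por -0.23, Alas1 -0.20), and 2 of 4 in high salt day fed than in low salt day fed (Pdxk -0.37, Nr1i3 -0.32).

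Between high salt day fed and low salt day fed the rhythms of Dbp (adjusted p = 2.08e-09) and Tef (2.46e-05) differed, 2 of 3 genes beside 11.3% of all rows. The Tef call was lost with cosine and sine terms (adjusted p = 0.0606). These rhythm comparisons and the values at single times rest on the unchecked order of times in high salt day fed. Dbp at ZT0 had 0.572, 0.698 and 0.851 FPKM in high salt day fed, against 15.0, 10.5 and 15.1 FPKM in low salt day fed. At ZT4 it had 10.02, 12.9 and 12.6 FPKM in high salt day fed, against 17.4, 16.9 and 11.1 FPKM in low salt day fed, and overlapped only there. The test of the feeding effect under high salt against that under low salt passed in rhythm for 2 of 3 genes (0 with cosine and sine terms), beside 6.21% of all rows, and in level for 0 of 3 by limma (0 at an unadjusted p under 0.05), beside 19.7% of all rows.

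**Figure D4:**
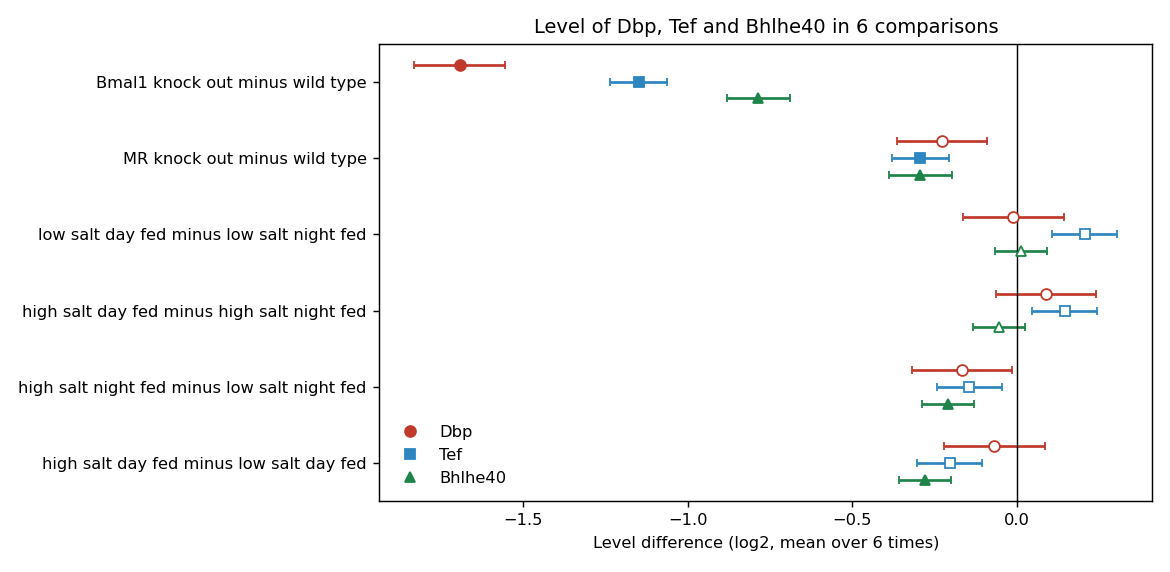
Log2 level differences (mean over 6 times, bars ± standard error) of Dbp, Tef and Bhlhe40 in 6 comparisons, filled where the limma adjusted p is under 0.05. The falls in Bmal1 knock out, from -1.69 for Dbp to -0.79 for Bhlhe40, are larger than the differences in the other comparisons, which run from -0.29 to 0.21.

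Across conditions each tested gene had its lowest mean log2 level in Bmal1 knock out. For Dbp the order of mean log2 levels was wild type, low salt night fed, low salt day fed, high salt day fed, high salt night fed, MR knock out and Bmal1 knock out. No neighbours differed by more than 2 standard errors except the last pair, 1.46 ± 0.15 apart. For Tef wild type was highest and Bmal1 knock out lowest (0.73 ± 0.09 below high salt night fed), and low salt day fed stood 0.20 ± 0.09 above high salt day fed, a difference that did not pass in the comparison of those conditions (adjusted p = 0.161). The other Tef neighbours lay within 2 standard errors. For Bhlhe40 the order was wild type, low salt day fed, low salt night fed, MR knock out, high salt night fed, high salt day fed and Bmal1 knock out. Of its neighbours only the last pair was separate (0.37 ± 0.09). Conditions further apart in the order are not compared by this rule. The order also sets genotype groups on chow ad libitum beside feeding groups on high or low salt food by day or night. Between these, a difference in level cannot be told apart from diet, feeding schedule or table. The standard errors do not cover this. Bhlhe40 stood at 5.13 ± 0.06 in wild type and 4.71 ± 0.06 in high salt day fed. Tef stood at 3.38 ± 0.07 in wild type and 2.97 ± 0.07 in high salt night fed.

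**Figure D5:**
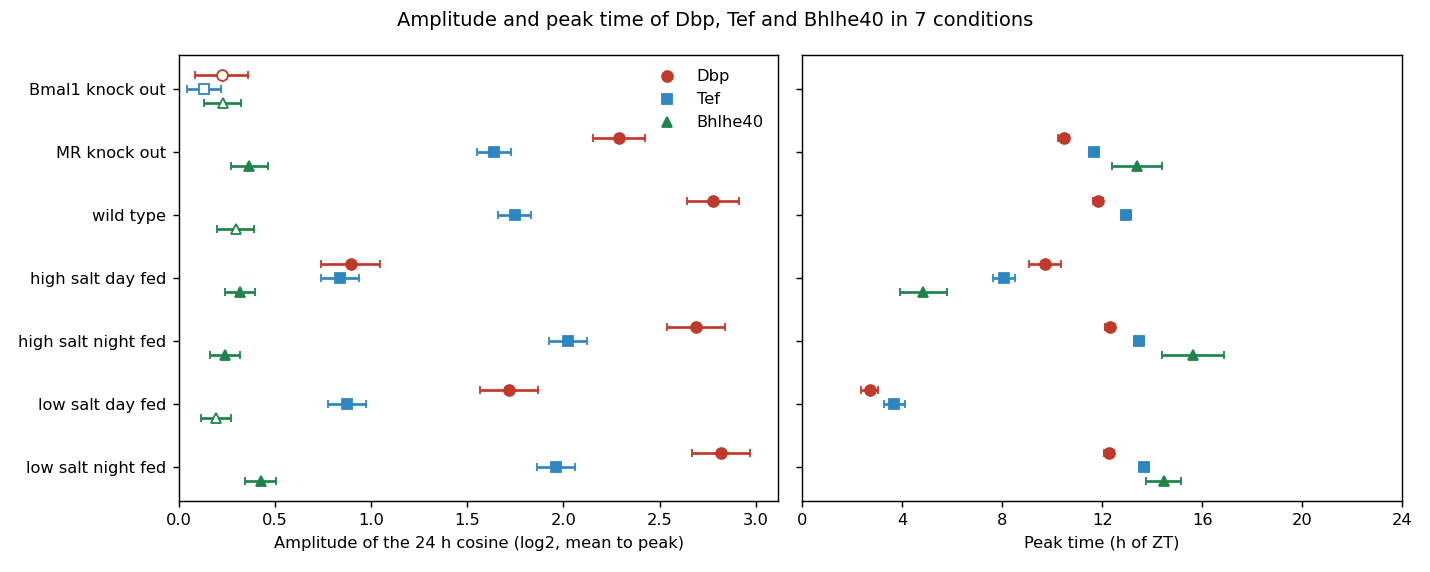
Amplitude of the 24 h cosine in log2 (left) and peak time in h of ZT (right) of Dbp, Tef and Bhlhe40 in 7 conditions, bars ± standard error; open symbols mark rhythms that did not pass, which have no peak drawn. Dbp has the largest amplitude of the 3 genes in every condition with a called Dbp rhythm, and its peak precedes that of Tef except in high salt day fed.

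In 5 conditions Tef peaked after Dbp, by 1.22 ± 0.19 h in MR knock out, 1.11 ± 0.39 h in wild type, 1.16 ± 0.21 h in high salt night fed, 0.99 ± 0.92 h in low salt day fed and 1.39 ± 0.33 h in low salt night fed (SD over 3 replicate numbers). The lag was above 0 in every replicate number of those conditions except 1 in low salt day fed (-0.02 h). Fitted peaks in high salt day fed had the reverse order (-1.65 ± 1.33 h).

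Over the 42 means of condition and time Dbp and Tef had a Pearson r of 0.94 in log2 level, while Bhlhe40 had 0.62 with Dbp and 0.70 with Tef. Nfil3 had -0.91 with Dbp and -0.87 with Tef, its competitors at D-boxes. The rows most like Dbp were Ciart (0.98), a repressor of CLOCK and BMAL1, Slc2a5 (0.89), the fructose transporter, and Spint1 (0.86), a serine protease inhibitor. Those most like Tef were Ciart (0.90), Cipc (0.86) and Per3 (0.86), and those most like Bhlhe40 were Eef2k (0.88), the kinase of elongation factor 2, Kcnk5 (0.87), a potassium channel, and Fam53b (0.87). These values describe means that share libraries and scaling.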

How the data were processed

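Per the submitters' processing notes, the authors used TopHat2 2.1.1, the mm10 build and Cufflinks 2.2.1; libraries were made with a stranded poly(A) kit, per the labels. The deposited values are FPKM, 1 table per condition with 18 columns, from which each column's condition was taken. The sources used here do not state the annotation, filters or normalization options. Each library was divided by its median ratio over 6966 genes at or above 1 FPKM in every library, and log2(FPKM + 0.5) was fitted in limma 3.58.1 (R 4.3.3; lmFit, eBayes with trend and robust), with 1 mean per condition and time, separately for 54 genotype libraries (36 residual degrees of freedom) and 72 feeding libraries (48). Of 24883 rows, 11377 with a mean of at least 1 FPKM in some condition were tested, 2-sided, adjusted p under 0.05. The fits were tested on simulated data. No replicate pair was identical, and replicates differed by a median absolute log2 difference of 0.089 to 0.531. The members and gene lists were chosen with earlier results of these data known. Named genes are the members, the targeted genes, up to 3 genes per list with the smallest adjusted p (all tested PAR bZIP targets and a few more list members were named after their values were seen) and the 3 rows most like each member, leaving out predicted genes and receptor segments. The lists were clock genes with E-boxes, D-boxes or ROR elements, other clock repressors, PAR bZIP and HIF1 targets, and 8 cell type marker lists; the highest sums of B cell, macrophage, fibroblast and endothelial markers were 6.85, 14.2, 12.7 and 1.69 FPKM. A planned comparison of protein sequences was not run. Alternatives were other pseudocounts and filters, FPKM as deposited, quantile normalization, array weights, a length score, cosine and sine terms with and without libraries of low scale factor, the compared conditions alone, time as a factor, a replicate block, and each replicate number or library left out.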

Additional observations from a re-analysis of the deposited data

Results flagged for a closer look

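The effect of feeding time on the rhythm of Dbp differed between high salt and low salt: the vector difference of the cosine and sine terms was 2.26 ± 0.30 in log2 (limma F test, adjusted p = 1.16e-05). For Tef it was 0.84 ± 0.20 (adjusted p = 0.0157). Both comparisons include the high salt day fed libraries, in which both genes alternate between neighbouring times. Both rest on the order of times in that condition, which could not be checked. For both the call was lost in fits with cosine and sine terms only (adjusted p = 0.111 and 0.370). With time as a factor both passed (1.78e-08 and 2.72e-04). That test was chosen after seeing the data, takes up any difference in time course and rests on the same order of times.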

How the results depend on the processing

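Over 792 member values under other settings, 726 kept their direction and call, 29 lost a call, 22 gained one and 15 reversed. Over 2295 values with a replicate number or library left out these were 2193, 65, 5 and 32. A level difference was reversed when its sign changed. A rhythm or rhythm difference was reversed when the vector of its cosine and sine terms turned to the opposite side of the day. The sizes printed for rhythms and rhythm differences have no sign. With FPKM as deposited the median of all rows moved to -0.89 in Bmal1 knock out minus wild type, to 0.41 in high salt day fed minus high salt night fed and to -0.45 in high salt night fed minus low salt night fed, and 3 members were called in the levels of both of these feeding comparisons and of the interaction, in the night salt rhythm difference and in the Bmal1 knock out rhythm, and 0 in the MR knock out rhythm difference. There Bhlhe40 changed to 0.39 in high salt day fed minus high salt night fed and 0.37 in the interaction, Tef to 0.36 in the interaction, Dbp to 0.000442 in low salt day fed minus low salt night fed, and Tef's night salt rhythm difference to 0.52. Without the libraries of low scale factor Bhlhe40 was 0.087 in high salt day fed minus high salt night fed and 0.074 in the interaction, Tef 0.19 in the interaction and its night salt rhythm difference 0.33, and the members called were 1 in the day salt rhythm difference, 0 in that of MR knock out and 0 in the interaction; with cosine and sine terms alone these counts were 1, 0 and 0, and the night salt level count 0. Dbp in low salt day fed minus low salt night fed was 0.13 with a pseudocount of 0.1 and 0.071 after quantile normalization, which called 2 members in the day salt level. Array weights gave Bhlhe40 -0.028 in low salt day fed minus low salt night fed and 0.024 in the interaction, Dbp 0.089 in the day salt level, and 1 member called in the low salt feeding level, the night salt rhythm difference and the Bmal1 knock out rhythm. With the length score Bhlhe40 was 0.024 in MR knock out, with 0 members called there and 0 in the night salt level. That count was also 0 with no filter and with the compared conditions alone, which called 1 in the MR knock out rhythm difference. The causes of these changes were not tested.

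Leaving out a replicate number or library, Bhlhe40 ran from -0.12 to 0.040 in high salt day fed minus high salt night fed, from -0.052 to 0.083 in low salt day fed minus low salt night fed and from -0.18 to 0.091 in the interaction, and its MR knock out rhythm difference from 0.034 to 0.22. Dbp ran from -0.028 to 0.16 in high salt day fed minus high salt night fed, from -0.14 to 0.0044 in high salt day fed minus low salt day fed, from -0.10 to 0.10 in low salt day fed minus low salt night fed and from -0.030 to 0.26 in the interaction, and its night salt rhythm difference from 0.093 to 0.52. Tef ran from -0.14 to 0.065 in the interaction. Members called ran from 0 to 3 in the MR knock out level, 0 to 1 in the day and night salt levels, 0 to 2 in the MR knock out rhythm difference, 1 to 2 in the interaction rhythm and 0 to 1 in the Bmal1 knock out rhythm.

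Between compared conditions at the same time, deviations of same-numbered libraries correlated with medians of -0.20 to 0.04. Single pairs ran from -0.58 to 0.57. Libraries of different times within a condition were not compared, so a pairing by replicate number there was not tested in this way. The replicate block changed no call of a member; Dbp in Bmal1 knock out minus wild type stayed at -1.69 (limma, adjusted p = 6.91e-13). Counts over all rows moved as well. Rows with a rhythm difference in MR knock out numbered 95, against 0 without replicate 2 and 6093 with array weights. In Bmal1 knock out they numbered 3546, against 279 without the libraries of low scale factor and 10024 with FPKM as deposited. Over the other settings the members called ran from 0 to 3 in the MR knock out rhythm difference. In that of Bmal1 knock out they ran from 2 to 3. Depth is known only in relative terms, so low values such as those of Hlf and Bhlhe41 carry no counting interval.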
